A study of Mus musculus with 12 samples.

Results

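The hair shaft is built from hair keratins and keratin-associated proteins (Krtap genes), and the sheaths around it from their own keratins. Rows of these gene families in the deposited tables were followed through 7 groups of sorted mouse hair follicle stem cells with and without the transcription factor Foxc1. Every row whose symbol begins with Krtap was taken (Krtdap is another gene). Added to these were the rows of most hair keratins, the inner root sheath keratins and the companion layer keratin Krt75. Left out were the hair keratins Krt39 and Krt40, and Krt82 and Krt85, which are merged with Krt6a in 1 row. This gave 71 of 23735 gene rows. They were 51 Krtap genes, 7 type I and 4 type II hair keratins, 4 type I and 4 type II inner root sheath keratins and 1 companion layer keratin. Of the 71, 38 reached 1 FPKM (fragments per kilobase of transcript, scaled to the mapped fragments of the library) in at least 1 group, of which 18 were keratins and 20 were Krtap genes. Of all gene rows, 59.4% reached that level. These counts use the joint table of all 7 groups. Just inside the limit was Krtap19-5 with a highest value of 1.06 FPKM, and just outside it Krtap19-4 with 0.978 FPKM. Without the first telogen library the number was 36.

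Hair follicles pass through growth (anagen), regression and rest (telogen). In anagen, matrix cells at the base of the follicle divide and their progeny differentiate into the hair shaft, the inner root sheath and the companion layer. Type I and type II keratins pair into filaments, and in the shaft the Krtap proteins, which are rich in cysteine or in glycine and tyrosine, form the matrix in which these filaments are embedded. Hair follicle stem cells of the bulge, the resting niche at the base of the permanent follicle, carry Krt15 and Cd34 and are not known for shaft or sheath keratins. Within a differentiating follicle, inner root sheath keratins and the early shaft keratin Krt35 appear before the keratins of the mid cortex and before most Krtap genes.

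All cells were sorted by flow cytometry from back skin of mice, and messenger RNA was sequenced. Each group below has 2 libraries, each labelled as from a single mouse, except where 1 library is stated. Anagen iKO cells came from males at postnatal day 30 with inducible loss of Foxc1 through Sox9CreER, a tamoxifen-activated Cre expressed in Sox9-positive cells, and anagen Het cells came from males of that age labelled heterozygous for the same combination. Sox9CreER mice, Het mice among them, were given tamoxifen, which also switched on a YFP reporter. Second telogen cKO cells had lost Foxc1 through K14Cre, a Cre active throughout the basal epithelium from before birth, and second telogen WT cells were their counterparts; in both, a male of day 42 and a female of day 46 were used. Second telogen iKO cells came from Sox9CreER males of day 60. Both Sox9CreER anagen groups and the second telogen iKO group were of a Black Swiss and C57BL/6 mix, while the cKO and WT groups were Black Swiss, so that the second telogen iKO and WT groups also differed in strain, age, sex, Cre and tamoxifen. The last pair comprised 1 library of anagen substage II at about day 26 and 1 library of the first telogen at about day 23, each from an Shh-heterozygous female of a strain labelled Agouti. The titles of both call them WT. These libraries have no replicates.

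The authors deposited 1 pooled FPKM value per gene and group, which leaves the spread of a level among libraries unknown. Foxc1 itself had 1.40 FPKM in anagen iKO cells against 23.9 in anagen Het cells, and 1.59 in second telogen cKO cells against 26.5 in WT cells. In the joint table of all groups it had 3.17 in second telogen iKO cells against 27.5 in WT cells. Of the bulge markers, Cd34 lay between 129 and 883 FPKM in all 7 groups. The basal keratin Krt14 had between 1452 and 4351 FPKM in them. Krt15 and the basal keratin Krt5 were listed at 0 in groups where their test was not estimated, so a listed 0 need not be an absence. No such failed estimate was found among the 71 shaft and sheath rows in any of the 21 comparisons. The first telogen library stood apart, with 92.2% of all rows above 0 against 73.3% to 75.3% in the other groups. It also held the highest summed FPKM of 9 dermal papilla and fibroblast genes, 2108 FPKM, followed by anagen II with 1027 FPKM, against 14.1 to 104 FPKM in the other groups.

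For the genes on which the results turn, the stretch around the start of transcription is shown to place the genes beside each other. Krt31, Krt33b and Krt32 are type I hair keratins of 1 cluster that differed in their response, Krtap8-1 was the most abundant Krtap gene of anagen Het cells, Krtap17-1 was the only Krtap gene above 1 FPKM in second telogen cells, and Krt71 was the most abundant inner root sheath keratin. Each line runs from 250 bases before to 50 bases from the start on, 5′ to 3′, from RefSeq on build GRCm38.p6. Capitals mark TATAAA, the core of a TATA box, CTTTGA and CTTTGT, cores bound by Lef and Tcf factors, and TAAACA, a core bound by forkhead factors, the family of Foxc1. All were searched on both strands, so a match on the other strand appears as its reverse complement, and in Krt32 the capitals TATAAACA are a TATAAA and a TAAACA that overlap.
Krt31 (chr11:100050502-100050801, minus strand): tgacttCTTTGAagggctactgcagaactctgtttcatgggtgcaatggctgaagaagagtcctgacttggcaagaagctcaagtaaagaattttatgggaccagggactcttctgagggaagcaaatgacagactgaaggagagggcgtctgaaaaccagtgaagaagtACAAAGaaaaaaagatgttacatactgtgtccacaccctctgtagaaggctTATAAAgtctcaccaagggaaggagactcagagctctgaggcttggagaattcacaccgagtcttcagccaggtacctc
Krt33b (chr11:100029819-100030118, minus strand): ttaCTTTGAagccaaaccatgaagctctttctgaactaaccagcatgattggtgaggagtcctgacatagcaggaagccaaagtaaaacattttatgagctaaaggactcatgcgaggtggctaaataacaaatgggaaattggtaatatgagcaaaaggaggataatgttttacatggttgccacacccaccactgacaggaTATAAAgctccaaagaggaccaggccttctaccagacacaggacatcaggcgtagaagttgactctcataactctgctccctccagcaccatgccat
Krt32 (chr11:100088220-100088519, minus strand): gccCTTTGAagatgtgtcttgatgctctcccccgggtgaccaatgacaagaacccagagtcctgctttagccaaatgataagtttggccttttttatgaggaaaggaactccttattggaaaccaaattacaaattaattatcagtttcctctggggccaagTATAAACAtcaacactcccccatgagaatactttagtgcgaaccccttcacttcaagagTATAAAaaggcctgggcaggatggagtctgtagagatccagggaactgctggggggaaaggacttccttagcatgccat
Krtap8-1 (chr16:89487903-89488202, minus strand): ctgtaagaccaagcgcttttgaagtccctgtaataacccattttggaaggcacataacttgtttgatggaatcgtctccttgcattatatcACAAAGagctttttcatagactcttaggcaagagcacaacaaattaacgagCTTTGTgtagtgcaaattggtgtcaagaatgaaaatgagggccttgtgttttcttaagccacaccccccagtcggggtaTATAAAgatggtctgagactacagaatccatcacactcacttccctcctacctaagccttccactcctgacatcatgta
Krtap17-1 (chr11:99993945-99994244, minus strand): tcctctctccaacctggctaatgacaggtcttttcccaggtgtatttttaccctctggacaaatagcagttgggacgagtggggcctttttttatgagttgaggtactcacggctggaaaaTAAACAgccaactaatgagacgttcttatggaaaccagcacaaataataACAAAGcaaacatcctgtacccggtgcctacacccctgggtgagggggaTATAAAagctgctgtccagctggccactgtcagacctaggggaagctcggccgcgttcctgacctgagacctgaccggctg
Krt71 (chr15:101743048-101743347, minus strand): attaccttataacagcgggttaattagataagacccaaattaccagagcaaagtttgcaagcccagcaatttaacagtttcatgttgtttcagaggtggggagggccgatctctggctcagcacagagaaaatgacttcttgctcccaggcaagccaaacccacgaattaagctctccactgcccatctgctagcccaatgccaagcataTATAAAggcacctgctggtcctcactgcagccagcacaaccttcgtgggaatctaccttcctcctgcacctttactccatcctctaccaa

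In these windows TATAAA began 29 bases before the start in Krt31, Krt32 and Krtap8-1, 31 bases before it in Krtap17-1, 40 in Krt71 and 47 in Krt33b. CTTTGA lay 244 bases before the start of Krt31 and 247 bases before those of Krt33b and Krt32. Krtap17-1 held TAAACA 129 bases before its start. RefSeq gave a usable window for 57 of the 71 genes. TATAAA was present in 48 of those 57 (84.2%) and in 14.2% of all 27025 promoter windows of the same length, and on the gene's own strand 40 to 20 bases before the start it was present in 35 (61.4%) against 2.22%. CTTTGA or CTTTGT was found in 29 windows (50.9%, against 31.3% of all), and TAAACA in 24 (42.1%, against 13.4%). The 29 were 23 of 45 Krtap, 4 of 5 hair keratin and 2 of 7 inner root sheath keratin windows. The 24 with TAAACA were mostly Krtap windows, 22 of 45, beside 1 of 5 hair keratin and 1 of 7 inner root sheath keratin windows. The letters alone show no binding, and the Krtap windows are not independent because these genes arose by duplication.

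Across the 7 groups the families were at their highest in growing follicles. Summed over all 71 rows of the joint table, the level was 233 FPKM in anagen iKO, 464 in anagen Het, 52.0 in second telogen cKO, 22.8 in second telogen iKO, 78.0 in second telogen WT, 292 in anagen II and 64.0 in the first telogen. Of the 38 genes that reached 1 FPKM, 30 were highest in anagen Het cells, and of all 71 genes 35 were. Of the 38, 35 reached 1 FPKM in anagen Het cells, so the limit itself favours that group. The share of all gene rows highest in anagen Het cells was not counted. The most abundant there were Krt71, an inner root sheath keratin, with 59.2 FPKM, Krtap8-1, a glycine- and tyrosine-rich protein, with 51.4 FPKM, and Krt25, an inner root sheath keratin, with 46.2 FPKM. Krt35, the early type I shaft keratin, had 41.9 FPKM and the glycine- and tyrosine-rich Krtap7-1 had 34.1 FPKM. In bulk RNA, fewer cells of a type and less RNA per cell cannot be told apart.

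**Figure D1:**
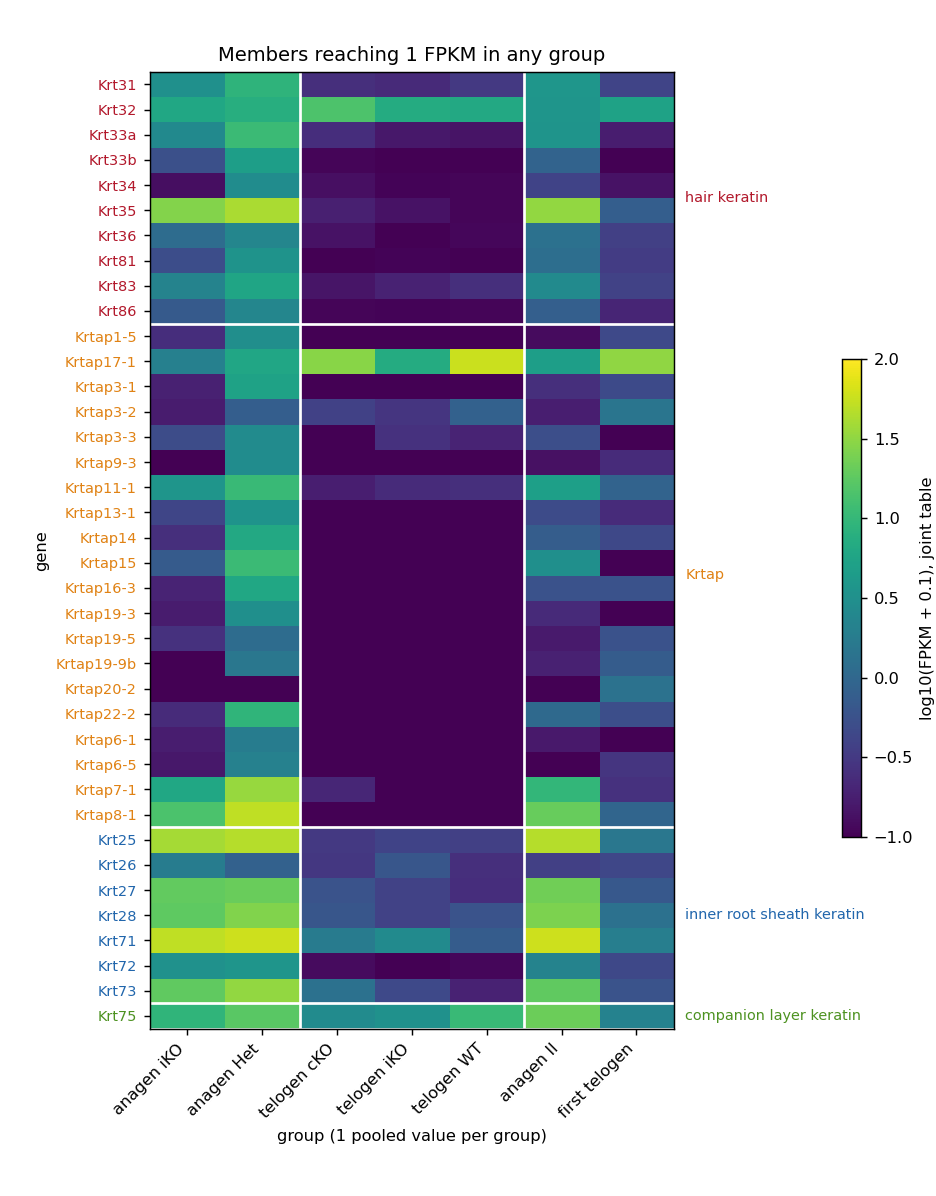
Levels of the 38 genes that reached 1 FPKM, as log10(FPKM + 0.1) of the pooled value per group in the joint table, with gene symbols down the side by class and the 7 groups across. Most rows are bright in the anagen columns and dark in second telogen. Exceptions include Krtap17-1, whose brightest cell is second telogen WT at 57.1 FPKM, and Krt32. Krt75 has 10.7 FPKM in second telogen WT and 9.14 in anagen iKO, and Krtap3-2 and Krtap20-2 are brightest in the first telogen.

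The other 33 genes stayed below 1 FPKM in every group of the joint table. Among them were the inner root sheath keratin Krt74, at most 0.708 FPKM, the type II hair keratin Krt84, at most 0.608 FPKM, and 31 Krtap genes. Krtap9-1 and Krtap4-8 were listed at 0 in all groups. Krtap4-9, Krtap4-1, Krtap4-6, Krtap13 and Krtap5-3 were above 0 only in the first telogen library, as was Krtap20-2, which reached 1.27 FPKM there and so is among the 38. Of the 31 low Krtap genes, 25 had their highest value in that library. It listed 42 of 51 Krtap genes above 0, but 39 of these were below 1 FPKM, and what part the larger share of all rows above 0 in that library has in this was not tested.

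The anagen comparison asked what the loss of Foxc1 changes in growing follicles, and both shaft and sheath genes were among those called. Of the 71 genes, 24 fell and 1 rose in iKO cells by the authors' test (q below 0.05). Of all 13716 tested rows, 5.08% fell and 5.18% rose. The authors' test covered 43 of the 71, and the other 28 were marked as not tested. The 24 comprised 8 of 11 hair keratins, 14 of 51 Krtap genes and 2 of 8 inner root sheath keratins. Only 23 of the Krtap genes were tested, whereas all hair keratins and inner root sheath keratins were. Over all 71 rows, called or not, 55 values were smaller in iKO than in Het cells, 7 were larger and 9 were listed at 0 in both, whereas 42.2% of all gene rows were smaller. The median log2((FPKM + 1) ratio) of the 71 rows was -0.42, against 0.00 over all rows. Reads of near-identical copies may be shared between genes. Leaving out genes in which over 10% of the 50-base windows of the transcript recurred in another gene left 16 calls, of which 15 fell and 1 rose. Shared windows were assessed for 65 of the 71 genes. The called hair keratin Krt83 was not assessed and was kept.

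**Figure D2:**
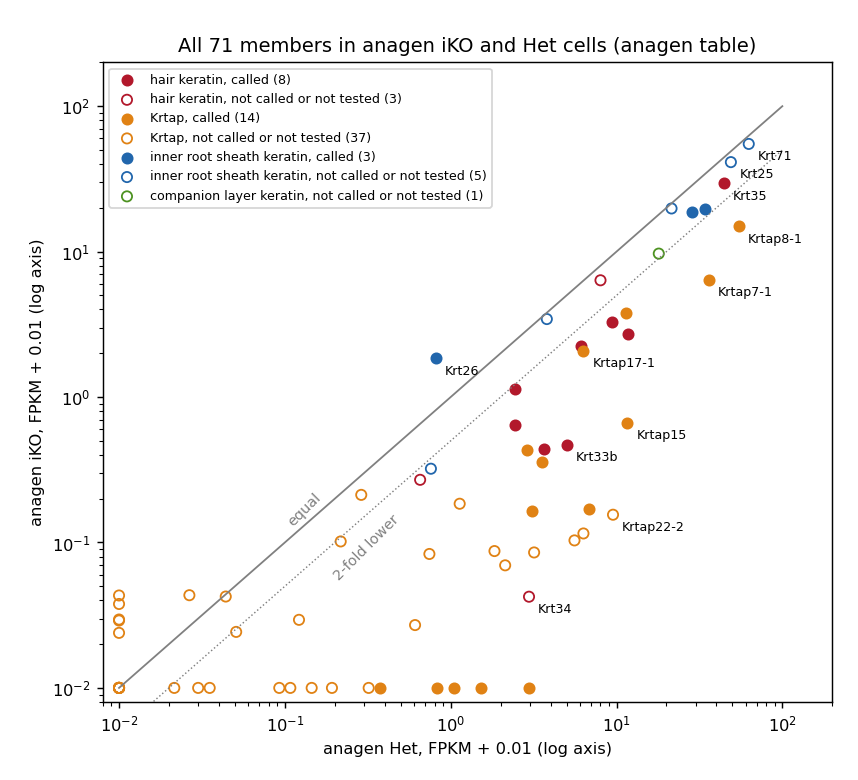
FPKM of all 71 genes in anagen Het cells (across) and anagen iKO cells (up), each plus 0.01, on log axes, with filled symbols for genes called in the authors' deposited anagen table. All 11 hair keratins and 36 of 51 Krtap genes lie below the line of equal values, with Krtap8-1 at 14.9 in iKO against 54.4 in Het cells, while Krt71 and Krt25 lie close to it.

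Among the type I hair keratins, Krt33b, a cortex keratin, had 0.461 FPKM in iKO cells against 5.02 in Het cells. It fell by 3.45 on the log2 scale in the authors' deposited table (standard error, SE, 0.57, q = 0.00106). Its neighbour Krt33a had 2.71 against 11.7 FPKM, 4.30-fold lower, and Krt31, also of the cortex, had 3.25 against 9.35 FPKM, 2.88-fold lower. Krt36 had 1.12 FPKM in iKO and 2.43 in Het cells, 2.16-fold lower. Krt35 fell less, to 29.5 FPKM in iKO cells against 44.4 in Het cells, 1.504-fold lower (q = 0.0195 in the authors' deposited table). Krt32, known in humans as a keratin of the shaft cuticle, was not called, with 6.34 in iKO and 7.996 in Het cells, the q being 0.487 in the authors' deposited table. Krt34 had 0.0324 in iKO and 2.96 in Het cells, the widest gap of the family, and also missed the threshold (q = 0.233 in the authors' deposited table). All 7 type I hair keratins thus had the smaller value in iKO cells, and 5 of them were called.

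Among the type II hair keratins, the cortex keratin Krt81 had 0.431 FPKM in iKO cells against 3.62 in Het cells, 8.40-fold lower. Krt86 had 0.634 in iKO and 2.44 in Het cells, 3.84-fold lower, and Krt83 had 2.25 in iKO and 6.11 in Het cells, 2.72-fold lower. These 3 had q = 0.00106 in the authors' deposited table. Krt84, which in humans is a keratin of the tongue, had 0.260 in iKO and 0.644 in Het cells and was not called. Krt81 and Krt86 are hard to tell apart by reads, since 32.9% of the 50-base windows of the Krt81 transcript recur in Krt86 and 35.6% of those of Krt86 in Krt81. Krt31 and Krt34 share 20.8% of the windows of Krt31. In any other gene, 24.2% of the windows of Krt33b and 17.8% of those of Krt33a recur, with Krt34 the main partner of both. The split of reads among all these genes is therefore uncertain. Krt83 was not assessed for shared windows. Krt35 and Krt36, at 2.74% and 0.432% recurring in any other gene, are free of most of this sharing.

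Krtap genes of the chromosome 16 cluster, of which 15 were tested, made up 9 of the 14 Krtap genes that fell. Krtap8-1 (mm9 chr16:89487619-89488197) had 14.9 FPKM in iKO cells against 54.4 in Het cells and fell by 1.87 on the log2 scale (SE 0.22) in the authors' deposited table. Krtap7-1 had 6.36 in iKO and 36.2 in Het cells, 5.69-fold lower. Of the sulphur-rich proteins of this cluster, Krtap15 had 0.657 in iKO and 11.6 in Het cells, 17.7-fold lower. Krtap14 had 0.161 in iKO and 6.78 in Het cells, 42.1-fold lower, and Krtap13-1 had 0.345 in iKO and 3.56 in Het cells, 10.3-fold lower. Krtap11-1 had 3.77 in iKO and 11.3 in Het cells, 3.003-fold lower. The glycine- and tyrosine-rich Krtap19-1, Krtap19-4 and Krtap19-9b were listed at 0 in iKO cells, with 0.819, 1.04 and 1.52 FPKM in Het cells, and were called lower. No Krtap gene of this cluster had a larger value in iKO cells, while 21 of its 23 had a smaller one and 2 were listed at 0 in both groups.

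On chromosome 11, 8 of 20 Krtap genes were tested and 5 of these fell, a share of the tested genes close to that on chromosome 16. The ultra-high-sulphur gene Krtap17-1 had 2.07 FPKM in iKO cells and 6.29 in Het cells, 3.05-fold lower, with q = 0.00434 in the authors' deposited table. The high-sulphur genes Krtap3-3, with 0.420 in iKO and 2.86 in Het cells, and Krtap1-5, with 0.156 in iKO and 3.07 in Het cells, fell 6.80-fold and 19.7-fold. Krtap1-4 and Krtap9-3 were listed at 0 in iKO cells, with 0.366 and 2.96 FPKM in Het cells. Smaller and larger values were closer to balance in this cluster, with 10 genes smaller, 5 larger and 5 listed at 0 in both groups, and the 5 larger ones were at most 0.0334 FPKM in iKO cells. None of the 3 chromosome 10 or 5 chromosome 7 Krtap genes was tested.

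For some genes the deposited p and the deposited statistic did not go together. In 8 tested Krtap genes the statistic was beyond 1.96 in size while the deposited p was not below 0.05, which held for 0.736% of all tested rows and 18.6% of the 43 tested. These were Krtap3-1, Krtap1-3, Krtap6-1, Krtap19-3, Krtap19-5, Krtap16-3, Krtap22-2 and Krtap6-5. Their iKO values were 6.43 to 65.5 times lower than their Het values, as in Krtap22-2 with 0.145 in iKO and 9.52 in Het cells and Krtap3-1 with 0.0933 in iKO and 5.57 in Het cells. Krtap16-3 had 0.105 in iKO and 6.31 in Het cells, and Krtap19-3 had 0.0754 in iKO and 3.17 in Het cells. Krtap6-5 had 0.0596 in iKO and 2.12 in Het cells, and Krtap6-1 had 0.0773 in iKO and 1.83 in Het cells. The lowest in Het cells were Krtap19-5, with 0.175 in iKO and 1.12 in Het cells, and Krtap1-3, with 0.0170 in iKO and 0.600 in Het cells. These 8 genes are not called here, although in each the iKO value was far below the Het value.

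Of the 8 inner root sheath keratins 2 fell, 1 rose and 5 were not called, while 7 had the smaller value in iKO cells. Krt71, which is made in all layers of the inner root sheath, had 54.996 FPKM in iKO and 62.7 in Het cells (log2 fold -0.19, SE 0.25, q = 0.657 in the authors' deposited table). The type I sheath keratin Krt25 had 41.2 in iKO and 48.9 in Het cells (log2 fold -0.25 in the authors' deposited table, SE 0.25). Krt27 had 19.8 in iKO and 21.5 in Het cells, and Krt72, of the sheath cuticle, had 3.43 in iKO and 3.79 in Het cells. None of these 4 was called. Krt28 fell 1.53-fold, to 18.8 in iKO against 28.6 in Het cells, and Krt73, of the sheath cuticle, fell 1.75-fold, to 19.6 against 34.3. Krt26 was the 1 gene of the 71 that rose, with 1.84 in iKO and 0.802 in Het cells, 2.29-fold higher (SE of the log2 fold 0.49, q = 0.0214 in the authors' deposited table). Krt74 had 0.311 in iKO and 0.750 in Het cells and was not called.

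The companion layer keratin Krt75 had 9.68 FPKM in iKO and 18.0 in Het cells and was not called. Its row and that of Krt84 share 1 merged locus on chromosome 15 (101346119 to 101524736, mm9) with 7 further rows, and its log2 fold has an SE of 1.503. Beside the shaft and sheath genes, 6 proliferation genes (Mki67, Top2a, Cdk1, Ccnb1, Birc5, Bub1) all rose in iKO cells, with a summed level of 210 FPKM in iKO and 56.7 in Het cells. Of 13 bulge genes 6 fell, Foxc1 itself and Cd34 among them, the second with 244 in iKO and 432 in Het cells, and the 3 collagens Col1a1, Col1a2 and Col3a1 fell, the fibroblast list summing to 58.5 FPKM in iKO and 110 in Het cells. Krt17, of the outer root sheath and companion layer, rose, and the sum over 3 such keratins was 5216 FPKM in iKO and 2309 in Het cells. Of 5 suprabasal epidermal genes Krt1 and Krtdap rose, the list summing to 938 FPKM in iKO and 503 in Het cells. The part of these differences in the fall of the shaft genes was not tested.

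Of 18 transcription factors and signals that act in the shaft and inner root sheath, 5 fell in anagen iKO cells and none rose. Dlx3, a homeobox factor required for the hair shaft, had 12.9 FPKM in iKO and 25.7 in Het cells. Dlx2 had 4.92 in iKO and 10.7 in Het cells. Gata3, required for the inner root sheath, had 15.6 in iKO and 22.9 in Het cells. Foxq1, a forkhead factor of the hair medulla, had 1.31 in iKO and 2.91 in Het cells, and Gprc5d, an orphan receptor of keratinizing shaft cells, had 0.831 in iKO and 4.55 in Het cells. Hoxc13, a direct regulator of hair keratin genes, was not called, with 44.5 in iKO and 32.5 in Het cells. Foxn1, the factor missing in nude mice, with 0.968 in iKO and 1.27 in Het cells, was not called either. Msx2 had 6.06 in iKO and 8.57 in Het cells and the Wnt effector Lef1 had 1.60 in iKO and 2.73 in Het cells, both without a call. Of 18 further structural genes, S100a3, a calcium-binding protein of the shaft cuticle, had 26.6 in iKO and 59.4 in Het cells and fell. Psors1c2, with 1.20 in iKO and 6.19 in Het cells, and the peptidylarginine deiminase Padi3, with 3.50 in iKO and 5.75 in Het cells, also fell. Gsdma3 rose, with 30.1 in iKO and 16.3 in Het cells, and trichohyalin (Tchh), the inner root sheath and medulla protein that Padi3 acts on, was not called, with 16.6 in iKO and 23.1 in Het cells. Krt80, a keratin outside the classes above, fell, the level being 34.6 in iKO and 94.6 in Het cells of the joint table.

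The unreplicated pair gave a view of the same genes at the start of growth in Shh-heterozygous mice. Among the 21 genes with at least 1 FPKM in either library, 17 were at least 2-fold higher in anagen II than in the first telogen and 3 were at least 2-fold lower. Of the 13601 rows that met the same minimum, 10.4% were at least 2-fold higher and 20.1% at least 2-fold lower. Over all 71 rows, with no minimum, 29 values were larger and 37 smaller in anagen II, and the 51 Krtap genes split into 11 larger and 35 smaller, while 65.9% of all gene rows were smaller. With both values above 0 and no minimum, 21 genes were at least 2-fold higher and 12 at least 2-fold lower. Krt71 had 59.5 FPKM in anagen II and 1.81 in the first telogen, Krt25 had 45.8 in anagen II and 1.43 in the first telogen, and Krt35 had 32.9 in anagen II and 0.684 in the first telogen. Krtap8-1 had 19.9 in anagen II and 0.864 in the first telogen, and Krtap7-1 had 9.72 in anagen II and 0.169 in the first telogen. Krt75 had 20.9 in anagen II and 2.01 in the first telogen. Lower in anagen II were Krtap17-1, with 4.74 against 31.9, Krtap3-2, with 0.0763 against 1.36, and Krtap20-2, listed at 0 against 1.27. The 3 genes at least 2-fold lower were all Krtap genes. Krt32 was the 1 other gene, with 3.52 in anagen II and 5.32 in the first telogen. With 1 library a stage there is no spread between replicates, so the deposited test of this pair was not used, and the first telogen library is the one that stood apart.

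Anagen II cells were also set against the day 30 anagen Het cells. Of the 35 genes with at least 1 FPKM in either group, 25 were at least 2-fold lower in anagen II than in anagen Het cells and none was at least 2-fold higher. Of the 12534 rows with that minimum, 8.18% were at least 2-fold lower and 10.5% at least 2-fold higher. All 35 genes reached the minimum in anagen Het cells, which favours lower values in anagen II. With no minimum, 53 of the 71 values were smaller in anagen II, 4 were larger and 14 were listed at 0 in both groups. Of all gene rows, 40.9% were smaller. Krt71 had 59.5 FPKM in anagen II and 59.2 in anagen Het cells, Krt25 had 45.8 in anagen II and 46.2 in Het cells, and Krt27 had 22.2 in anagen II and 20.3 in Het cells. Other inner root sheath keratins had smaller values, Krt73 with 18.6 in anagen II and 32.3 in Het cells and Krt72 with 2.10 in anagen II and 3.58 in Het cells. The low Krt26 had 0.269 in anagen II and 0.757 in Het cells, and Krt74 had 0.280 in anagen II and 0.708 in Het cells. Among the shaft genes, Krt33a had 3.48 in anagen II and 11.004 in Het cells, Krt81 had 1.12 in anagen II and 3.42 in Het cells, and Krtap14 had 0.673 in anagen II and 6.40 in Het cells. The groups differ in strain, sex, age and Foxc1 and Shh genotype as well as in substage.

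Set against the same Het values, the anagen iKO cells and the anagen II cells can be laid side by side, with the limit that both ratios share their denominator and so cannot count as independent. Among the 6 inner root sheath keratins with at least 1 FPKM in Het cells, the level in anagen iKO cells was 57.2% to 92.2% of that in Het cells, and the level in anagen II cells was 57.6% to 110% of it. Among the 10 hair keratins it was 1.09% to 79.3% in anagen iKO cells and 10.8% to 78.6% in anagen II cells. Among the 18 Krtap genes it was 0% to 33.3% in anagen iKO cells and 0% to 79.8% in anagen II cells. These genes were kept for their level in Het cells, which favours values under 100%. The inner root sheath keratins Krt26 and Krt74 were left out by this minimum. Krt26 had 1.73 FPKM in anagen iKO, 0.757 in Het and 0.269 in anagen II cells. Krt74 had 0.294 in anagen iKO, 0.708 in Het and 0.280 in anagen II cells. Over all 12023 rows kept the same way, the median was 98.5% in anagen iKO cells and 91.7% in anagen II cells. Within the hair keratins Krt35 was near the top in both groups, at 66.5% in anagen iKO and 78.6% in anagen II cells, and Krt34 was lowest in both, at 1.09% in anagen iKO and 10.8% in anagen II cells. Some genes had unlike values in both groups. Krtap17-1 had 32.8% in anagen iKO and 79.8% in anagen II cells, Krt75 had 53.9% in anagen iKO and 123% in anagen II cells, and Krtap15 had 5.66% in anagen iKO and 27.8% in anagen II cells. The other way round, Krt32 had 79.3% in anagen iKO and 46.7% in anagen II cells, and Krt72 had 90.4% in anagen iKO and 58.6% in anagen II cells. The proliferation genes summed to 199 FPKM in anagen iKO, 216 in anagen II and 53.6 in anagen Het cells of the joint table, and the fibroblast genes to 55.2 in anagen iKO, 1027 in anagen II and 104 in anagen Het cells. Their part in the ratios was not tested.

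**Figure D3:**
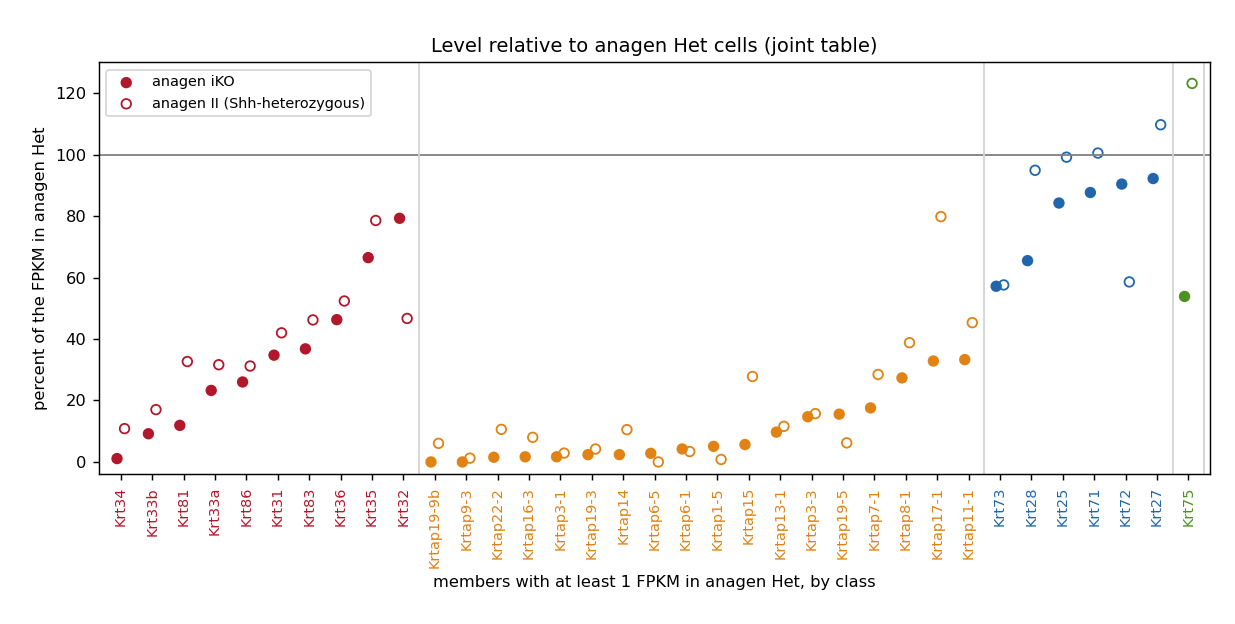
Level in anagen iKO cells (filled) and in anagen II cells (open) as a percent of the FPKM in anagen Het cells, for the 35 genes with at least 1 FPKM in Het cells, by class and then by the iKO value, from the joint table. The Krtap genes shown lie at 33.3% or less in iKO cells, the inner root sheath keratins shown at 57.2% or more. Krt26 and Krt74 were below the minimum and are not shown.

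In the second telogen almost all of these genes were near or at 0, and only a few could be tested. Of 51 Krtap genes, 44 were listed at 0 in cKO, 46 in iKO and 41 in WT cells. The authors' test covered 8 of the 71 genes in cKO against WT cells, of which 2 rose and 1 fell. Over all 13551 tested rows 3.75% rose and 2.87% fell. Krt32 rose, with 13.96 FPKM in cKO and 6.09 in WT cells (log2 fold 1.20, SE 0.37, q = 0.00295 in the authors' deposited table). Krt73 rose, with 1.18 in cKO and 0.0896 in WT cells (log2 fold 3.72, SE 0.97, q = 0.0273 in the authors' deposited table). Krtap17-1 fell, to 27.8 in cKO against 54.96 in WT cells (log2 fold -0.99, SE 0.27, q = 0.0185 in the authors' deposited table). Krt71 was not called in the telogen table, with 1.59 in cKO and 0.616 in WT cells and q = 0.0794, and was called in the joint table, with q = 0.01100, both in the authors' deposited tables. Krt75, in its merged locus, had 2.62 in cKO and 10.3 in WT cells with an SE of 3.30 and was not called.

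The second telogen iKO cells, set against the WT cells in the joint table, gave 2 genes that rose and 1 that fell among 9 tested, beside 7.01% that rose and 5.88% that fell of 13714 tested rows. Krt71 rose, with 2.65 FPKM in iKO and 0.641 in WT cells (log2 fold 2.05, SE 0.51, q = 0.000444 in the authors' deposited table), and Krt26 rose, with 0.533 in iKO and 0.152 in WT cells (q = 0.0146 in the authors' deposited table). Krtap17-1 fell, to 6.9995 in iKO against 57.1 in WT cells (log2 fold -3.03, SE 0.28, in the authors' deposited table). Krt32 was not called here, with 6.85 in iKO and 6.34 in WT cells. Krt73 had 0.356 in iKO and 0.0933 in WT cells and missed the threshold (q = 0.0524 in the authors' deposited table). Both knockout groups of the second telogen were set against the same WT libraries, so their values are not independent. The 6 proliferation genes rose in both, summing to 65.4 in cKO and 7.70 in WT cells of the telogen table, and to 43.4 in iKO and 8.01 in WT cells of the joint table. Their part in the rise of Krt71 was not tested. Of the 18 regulators in cKO against WT cells, Lef1 rose, with 4.19 in cKO and 1.04 in WT cells, and Dlx2 and Dlx3 fell. In iKO against WT cells Foxq1, Ovol1 and Cux1 rose and Dlx3 fell, while Lef1, with 1.31 in iKO and 1.08 in WT cells, and Dlx2, with 3.02 in iKO and 2.73 in WT cells, were not called. Of the 18 structural genes, Tgm3 and Cst6 rose and Selenbp1 fell in cKO cells, and Tgm3 rose and S100a3, Gsdma3 and Selenbp1 fell in iKO cells.

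Krtap17-1 (mm9 chr11:99854546-99855308) thus departed from most other Krtap genes. In the joint table it had 28.99 FPKM in second telogen cKO, 6.9995 in second telogen iKO and 57.1 in second telogen WT cells, 1.95 in anagen iKO and 5.94 in anagen Het cells, 4.74 in anagen II and 31.9 in the first telogen. It held 98.03% of the summed Krtap FPKM in second telogen cKO, 93.1% in iKO and 97.9% in WT cells, and 6.85% in anagen iKO and 3.59% in anagen Het cells. Every resting group lay above every growing one, and the lowest resting value, 6.9995 in second telogen iKO cells, was close to the highest growing one, 5.94 in anagen Het cells. In each of the 3 comparisons of Foxc1-deficient with control cells it fell. The low Krtap3-2 also had smaller values in these 3, without a call. It had 0.0692 FPKM in anagen iKO and 0.693 in anagen Het cells of the joint table. In the second telogen it had 0.284 in cKO, 0.191 in iKO and 0.748 in WT cells. No 50-base window of the Krtap17-1 transcript recurred in another gene. Without Krtap17-1 the summed Krtap level was 0.583 FPKM in second telogen cKO, 0.520 in iKO and 1.23 in WT cells.

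**Figure D4:**
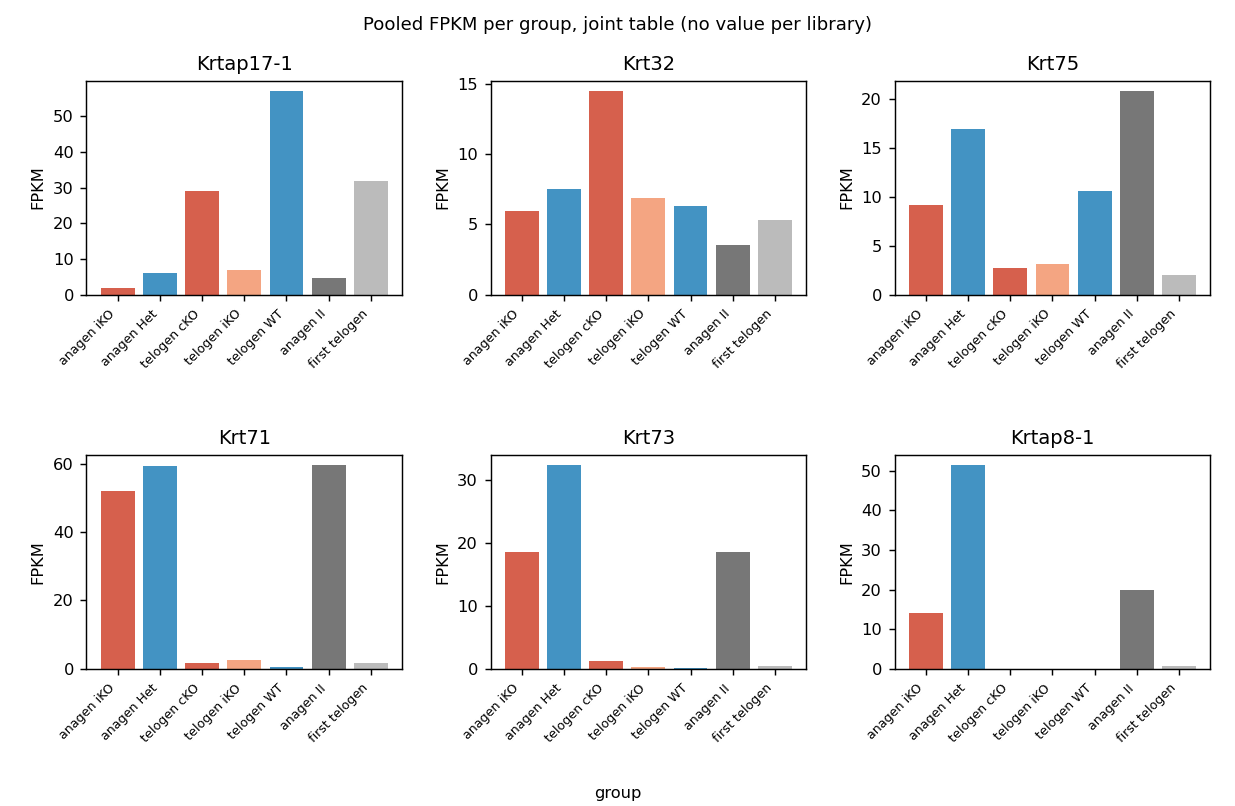
Pooled FPKM in the 7 groups for 6 genes, from the joint table, with no error bars because values are pooled per group. Krtap17-1 is highest in the resting groups, Krt32 is at 14.5 FPKM in second telogen cKO and between 3.52 and 7.55 FPKM in the other groups, and Krt71, Krt73 and Krtap8-1 are high in the 3 anagen groups.

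The stage was also compared within and between genotypes. The second telogen iKO and anagen iKO groups were both Sox9CreER males of the mixed strain and differed in age as well as stage, whereas the second telogen WT and anagen Het groups also differed in strain, Cre and tamoxifen, with 1 female among the WT libraries. In second telogen iKO against anagen iKO cells 24 of the 71 genes were tested, 1 was higher and 16 were lower, beside 17.6% higher and 15.5% lower of 13787 tested rows. In second telogen WT against anagen Het cells 42 were tested, 1 was higher and 29 were lower, beside 13.5% higher and 11.9% lower of 13932 tested rows. The 1 higher gene was Krtap17-1 in both comparisons. In the second of them the 29 comprised 7 of 8 inner root sheath keratins, 4 of 11 hair keratins and 18 of 51 Krtap genes (22 tested). Krt71 had 0.641 in second telogen WT and 59.2 in anagen Het cells (log2 fold -6.53, SE 0.46, in the authors' deposited table), and 2.65 in second telogen iKO and 51.9 in anagen iKO cells. Krtap8-1 was listed at 0 in all 3 second telogen groups. Krt35 had 0.0109 in second telogen WT and 41.9 in anagen Het cells without a call, being 1 of 7 genes there with a statistic beyond 1.96 and a p that was not below 0.05. By the ratio of its values Krt32 was the hair keratin least tied to stage, with 6.34 in second telogen WT and 7.55 in anagen Het cells. It was not called, but 7 of the 11 hair keratins were not, Krt35 among them, so the lack of a call does not set it apart.

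Whether the effect of Foxc1 loss differed between anagen and second telogen was tested for the 8 genes with a statistic in both 2-group tables, as the difference of both log2 folds over its SE, adjusted over 13033 rows. Krt73 differed, with a log2 fold of 3.72 for cKO over WT and -0.81 for anagen iKO over Het in the authors' deposited tables, a difference of 4.52 (SE 1.01, adjusted p = 0.00133). Over all rows 0.990% differed. Its telogen fold rests on 0.0896 FPKM in WT cells. By the same z test with adjustment, Krt32 had a difference of 1.53 (SE 0.49) with an adjusted value of 0.119. Krt71 had a difference of 1.56 (SE 0.68) with an adjusted value of 0.731. Krtap17-1, which fell at both stages, had a difference of 0.62 (SE 0.49). The Cre, the strain and the control genotype changed with the stage and cannot be told apart from it.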

How the data were processed

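Messenger RNA of 12 libraries in 7 groups was sequenced after TruSeq mRNA preparation, per the labels' protocols. TopHat, Cufflinks, Cuffdiff and build mm9 are named, without versions or settings, per the submitters' processing notes. Each of the 3 deposited tables holds 1 pooled FPKM value per gene and group, made by the authors. The log2 fold change and the test statistic, a score, were deposited by the authors with a p-value, whose smallest value is 5e-05, and a q-value. The q-value was adjusted over all 21 comparisons together in the joint table. The tables were scaled separately, so joint values lay -0.08 (anagen) and 0.06 (telogen) from those of the 2-group tables on the log2 scale, and levels are compared within a table only. Counts and depth are unknown, so no counting interval is given.

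Calls required a q under 0.05 as deposited, which rests on 2 libraries per group. Anagen iKO and Het, and second telogen cKO and WT, were taken from their own tables and all other comparisons from the joint table. In the unreplicated pair at least 2-fold with at least 1 FPKM in either group was counted, with no test. The SE was computed as the log2 fold over the statistic. The difference of 2 effects was tested two-sided as a z value with Benjamini-Hochberg adjustment, after a test on simulated data. Named were all genes that reached 1 FPKM or were called, Foxc1, 12 further genes chosen by name and, for the knockout comparisons, the called genes of the regulator and structural lists. Genes and lists were chosen with earlier results of these data known. Windows of 50 bases were compared among all GENCODE M21 transcripts. Promoters are from RefSeq, matched by symbol, chromosome and position on it, within 5000 bases after the shift between builds. Scripts used Python 3.11.15, pandas 2.3.3, numpy 2.4.6, scipy 1.17.1 and matplotlib 3.10.9.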

Additional observations from a re-analysis of the deposited data

Results flagged for a closer look

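Krt73, a keratin of the inner root sheath cuticle, was marked because the effects of Foxc1 loss at both stages differed by their own test. Its log2 fold was 3.72 for second telogen cKO over WT cells and -0.81 for anagen iKO over Het cells in the authors' deposited tables, a difference of 4.52 (SE 1.01, adjusted p = 0.00133). The telogen levels were 1.18 FPKM in cKO and 0.0896 in WT cells, and the anagen levels 19.6 in iKO and 34.3 in Het cells. With the larger of the SE from the statistic and that from the deposited p, the adjusted p was 0.0478, and over all alternatives it lay between 4.77e-05 and 0.0478.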

How the results depend on the processing

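Of 47 counts and medians recomputed under the alternatives, 34 stayed within 1.5 times the reported count or within rounding of the reported median and 13 moved, and no median changed sign. The 34 include the medians of second telogen cKO and iKO over WT, which could not move. In these, 38 and 42 of the 71 rows were listed at 0 in both groups, so the median was 0 at any pseudocount. With a pseudocount of 0.1 or 5 in place of 1, the median log2 ratio of the 71 rows was -1.05 or -0.17 in anagen iKO over Het, -0.39 or -0.0090 in second telogen iKO over anagen iKO, and -2.15 or -0.16 in second telogen WT over anagen Het. At q below 0.01, 1 gene was called in second telogen cKO over WT, against 3. Without genes sharing over 10% of their 50-base windows, an alternative chosen after seeing the data as were leaving out the first telogen group and leaving out genes with unlike p and statistic, 16 genes were called in anagen iKO over Het, against 25, 11 in second telogen iKO over anagen iKO, against 17, and 20 in second telogen WT over anagen Het, against 30. Genes not assessed for shared windows were kept in these counts. With a 2-fold minimum the fall of Krtap17-1 in second telogen cKO over WT was no longer counted, which left 2 genes that rose. In anagen II over the first telogen, 33 genes passed 2-fold with no minimum and both values above 0, and 5 with 1 FPKM in both, against 20. With a minimum of 0.1 FPKM 67 genes were reached, and with 5 FPKM 20, against 38. Taken from the joint table, 45 of 46 single log2 folds kept direction and call, and Krt71 in second telogen cKO over WT became called, with a log2 fold of 1.37. No paired analysis was possible because the tables hold 1 pooled value per group, and for the same reason no library could be left out. Depth is unknown, so zeros cannot be given a limit.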
